A study of Mus musculus with 18 samples.

Results

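The sequences described here are 8-mers that carry the half-site of the PAR (proline and acidic amino acid-rich) subfamily of bZIP transcription factors. They were chosen by sequence alone: an 8-mer was a member when it, or its reverse complement, held the hexamer TTACGT, the first 6 bases of the PAR octamer TTACGTAA, and neither strand held the first 6 or the central 6 bases of the cAMP response element (CRE), the palindromic octamer that CREB and ATF proteins prefer. Of 65530 8-mers in the deposited z-score table, 95 held the hexamer, 2 of these were left out because they joined it to a CRE half-site, and 93 were members. All 93 were among the 65121 8-mers tested.

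The study measured the binding of 3 mouse bZIP proteins, CREB1, ATF1 and JUND, to double-stranded DNA probes on protein binding microarrays, where a tagged protein is read by fluorescence at every probe. Each protein was a DNA-binding domain with short native flanks and a glutathione S-transferase tag, expressed in a cell-free system. The array's second strand was copied by primer extension with 1 of 3 cytosines: ordinary cytosine (C), the methylated form (5mC) or the hydroxymethylated form (5hmC). Modified cytosines thus lay only on the copied strand, called the synthesized strand here, so each modified CpG carried its mark on 1 strand. The 18 arrays form 9 groups, 2 arrays for each protein with each kind of DNA. Whether a group's 2 arrays used separately made protein is not stated in the labels. The p-values therefore reflect the spread between arrays alone, and that spread may be technical.

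bZIP proteins bind DNA as dimers whose basic regions each read 1 half-site in the major groove. DBP, TEF and HLF, the PAR proteins, and the related repressor NFIL3 bind the PAR octamer and are known for circadian gene control in liver and other tissues. Their octamer shares the central ACGT with the CRE and shares its outer bases with the C/EBP site. CREB1 and ATF1 are close relatives that bind the CRE, and JUND is a subunit of AP-1.

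The sequences on which the results turn are given as they read on the synthesized, modified strand, with the hexamer or its reverse complement in capitals and flanking bases in lower case. Shown are the palindrome, aTTACGTa and its reverse complement tACGTAAt, which stood next on CREB1 C DNA, and TTACGTag with its reverse complement ctACGTAA, the highest member for CREB1 on 5mC.
palindrome: TTACGTAA
hexamer between adenines: aTTACGTa
its reverse complement: tACGTAAt
hexamer before AG: TTACGTag
its reverse complement: ctACGTAA
Replacing the second base of the hexamer gives the CRE half-site, and replacing the third gives the C/EBP half-site. The CRE and C/EBP forms of the reverse complement put an additional C, and so an additional modified base, on the synthesized strand.
CRE half-site in the palindrome: TGACGTaa
CRE half-site, reverse complement: ctACGTCA
C/EBP half-site in the palindrome: TTGCGTaa
C/EBP half-site, reverse complement: ctACGCAA

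Among the members, 1 was the palindrome, 46 held the hexamer on the synthesized strand and 46 held its reverse complement there. Each member lay on 13 to 22 probes, with a median of 17. Together they lay on 570 of 40330 probes, and 1 probe could hold up to 6 members, so members are not independent of one another. The z-score is the authors' value per 8-mer and array; a value of 0 is near the median 8-mer, and larger values mean brighter probes. Depth has no counterpart on an array, and the number of arrays limits the precision. The median probe signal ran from 519 to 8013.75 over the 18 arrays, and the correlation of z-scores between the 2 arrays of a group from 0.290 (JUND on 5hmC) to 0.957 (CREB1 on C).

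On unmodified DNA the members were bound by CREB1 and less by ATF1, and were near background for most members with JUND. The median member z-score was 22.1 for CREB1 (4.31 to 85.6), 10.0 for ATF1 (2.07 to 45.6) and 1.63 for JUND (-0.80 to 7.31), as means of 2 arrays. A z-score of 4 or more was reached by 89 members on CREB1 C array 1 and 93 on array 2, by 85 and 82 on the ATF1 C arrays, and by 15 and 1 on the JUND C arrays. Among all 8-mers the share at or above 4 was 4.25% and 5.99% for CREB1, 2.96% and 3.00% for ATF1 and 1.59% and 0.375% for JUND. The JUND protein did bind other sequences on C DNA, where its highest mean z-score over all 8-mers was 187.

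Levels varied among the members with the bases beside the hexamer, for CREB1 and for ATF1. Across the 93 members, mean z-scores on C DNA correlated with a Pearson r of 0.924 and a Spearman rho of 0.925 between CREB1 and ATF1; the members share probes and overlap in sequence. An adenine after the hexamer went with the highest values, with a CREB1 median of 53.9 over 15 members on C DNA, against 17.2 for cytosine, 19.4 for guanine and 17.8 for thymine. The base before the hexamer went in the same order for both proteins at its upper end, with CREB1 medians of 31.8 after adenine, 25.5 after guanine, 16.4 after cytosine and 13.5 after thymine, and ATF1 medians of 17.3, 9.96, 7.21 and 8.92. The 4 members with a purine before and an adenine after had a CREB1 median of 66.8, and the 4 with a pyrimidine before and an adenine after 41.8. By the place of the hexamer in the 8-mer the CREB1 medians were 20.1, 22.8 and 23.7 at the start, middle and end. By the number of cytosines on the synthesized strand the CREB1 medians on C DNA were 22.7 for 52 members with 1, 22.1 for 35 with 2 and 12.7 for 6 with 3. The 4 members with 2 CpG dinucleotides had a median of 30.9. These groups were described and not tested.

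The palindrome had the highest mean CREB1 z-score of the members on C DNA. Its z-scores were 84.3 and 86.9 on the CREB1 C arrays, 37.9 and 33.2 on the ATF1 C arrays, and 5.15 and 5.16 on the JUND C arrays. It ranked 47th of all tested 8-mers by mean z-score for CREB1, 68th for ATF1 and 365th for JUND. The next CREB1 members were tACGTAAt, with 69.2 and 88.4, and aTTACGTa, with 66.5 and 89.5. The member aTTACGTa led for ATF1, with 46.1 and 45.1, ahead of the palindrome and of TTACGTat, with 28.2 and 31.0. It also led for JUND, with 10.9 and 3.72. The other members of the JUND top 3 were ACGTAAtc, with 9.64 and 3.39, and the palindrome. At the low end for CREB1 stood cTTACGTt, with 1.90 and 6.72, and ggACGTAA, with 2.25 and 7.02.

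CREB1 binding to the members was lower on both kinds of modified DNA. On 5mC the median member z-score was 3.00 and on 5hmC 2.78. In limma's fit over all 8-mers, with Benjamini-Hochberg adjustment, all 93 members fell with 5mC, where 6.21% of all tested 8-mers were called lower. All 93 also fell with 5hmC, where 6.78% of all were called lower. The 2 comparisons share the same C arrays. The z-scores of the 2 groups did not overlap for any member in either comparison, against 28.8% and 29.3% of all 8-mers with modified arrays entirely below. The median member change was -17.6 with 5mC and -18.0 with 5hmC, against -0.0631 and -0.0616 over all tested 8-mers. The smallest changes were -3.67 and -4.32, in members that were low already on C DNA.

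The largest CREB1 fall with 5mC was that of the palindrome. Its 2 values were 84.3 and 86.9 on C, 16.3 and 6.39 on 5mC, and 14.8 and 17.2 on 5hmC. The change was -74.3 ± 10.5 (SE, n = 2 arrays a group) with 5mC in limma's fit (adjusted p = 5.0e-05) and -69.6 ± 10.5 with 5hmC (adjusted p = 1.1e-04). That SE came from a spread shared by all 18 arrays. With only the CREB1 arrays in limma's fit the SE was 18.0, and the adjusted p-values were 0.0170 with 5mC and 0.0258 with 5hmC. Every modified array lay below both C arrays. The 2 5mC arrays were farther apart than the 2 5hmC arrays. The change of aTTACGTa was -70.8 with 5mC and -70.6 with 5hmC, that of TTACGTag -70.4 and -69.6, and that of tACGTAAt -64.5 and -62.3. The member TTACGTag kept less than most of this group, with 3.74 and 4.08 on 5mC and 4.77 and 4.67 on 5hmC after 66.7 and 81.9 on C. The members gTTACGTa, which changed by -51.9 with 5mC, and ACGTAAtc, which changed by -52.7 with 5hmC, completed the 5 largest falls.

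Some members stayed well above the median 8-mer for CREB1 on modified DNA. A z-score of 4 or more was reached by 34 and 29 of 93 members on the 5mC arrays and by 19 and 31 on the 5hmC arrays. Among all 8-mers the shares were 2.53% and 1.96% on the 5mC arrays and 1.72% and 1.80% on the 5hmC arrays. The highest on 5mC was ctACGTAA, with 25.9 and 11.4 after 46.8 and 63.4 on C. It fell by 36.4 ± 6.93 (SE; limma adjusted p = 0.00123) with 5mC and by 47.1 ± 6.93 (adjusted p = 8.7e-05) with 5hmC. It was 103rd of all tested 8-mers by mean z-score on 5mC and 116th on C. On 5hmC the highest were tACGTAAt, with 15.1 and 18.0, the palindrome, and tACGTAAc, with 8.32 and 12.9. Of the members, 0 were called different between 5hmC and 5mC for CREB1 by limma, with 0.766% of all 8-mers called lower and 2 members at an unadjusted p under 0.05.

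The CREB1 falls were also seen on another scale. On log2 probe signal, with each 8-mer summarised over its probes, all 93 changes stayed below 0, with CREB1 medians of -1.67 with 5mC and -2.00 with 5hmC against -0.05 and 0.03 over all 8-mers. After quantile normalization of the arrays they stayed below 0 too, with medians of -1.08 and -1.14, but the limma calls dropped to 49 and 53 of 93. Of all 8-mers, 2.47% and 3.01% were called lower on that scale. The palindrome was among the calls lost there for 5hmC, at -0.60 on the log2 scale (adjusted p = 0.419).

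ATF1 binding to the members was lower on modified DNA as well, with fewer calls. The median member z-score was 2.05 on 5mC and 1.38 on 5hmC, after 10.0 on C. With 5mC, limma called 47 of 93 members lower, where 2.06% of all 8-mers were. With 5hmC it called 42 lower, where 2.08% of all were. The 2 comparisons share the ATF1 C arrays. All 93 changes were below 0 in both comparisons, with medians of -7.65 and -8.39. The arrays did not overlap for 92 members with 5mC and for 93 with 5hmC, against 30.1% and 24.5% of all 8-mers with modified arrays entirely below. Between 5hmC and 5mC limma called 0 members, with 0.591% of all 8-mers called lower and 0 members at an unadjusted p under 0.05.

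The ATF1 falls named by rule, which required a call, were those of members with the hexamer on the synthesized strand. The member TTACGTat had 28.2 and 31.0 on C, 1.93 and 2.18 on 5mC, and 2.56 and 1.69 on 5hmC. It fell by 27.6 ± 4.52 (SE, n = 2) with 5mC (limma adjusted p = 0.00369) and by 27.5 ± 4.52 with 5hmC (adjusted p = 0.00347). The member aTTACGTa fell by 40.7 ± 10.5 with 5mC (adjusted p = 0.0392), and its change of -40.0 with 5hmC had an adjusted p of 0.0517. The member TTACGTag changed by -25.9 with 5mC and -27.0 with 5hmC, and gTTACGTa by -19.3 and -18.3. The change of cTTACGTa with 5mC was -17.9, and with 5hmC gcTTACGT changed by -20.4 and aTTACGTc by -18.0. Of the 46 members with the hexamer on the synthesized strand, 32 were called lower with 5mC and 26 with 5hmC, and of the 46 reverse complements 15 and 16. The median changes were -9.68 and -9.36 for the former and -6.73 and -7.76 for the reverse complements. The reverse complements tACGTAAt and ACGTAAtc, with means of 27.6 and 23.9 on C and 4.27 and 4.42 on 5mC, were not called with 5mC. The standard errors came from a spread shared by all 18 arrays, so these counts do not reflect the ATF1 arrays alone.

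The palindrome was not called for ATF1. Its values were 37.9 and 33.2 on C, 5.66 and 4.67 on 5mC, and 7.11 and 6.59 on 5hmC, with no overlap between C and modified arrays. The changes were -30.4 ± 10.5 (SE; limma adjusted p = 0.123) and -28.7 ± 10.5 (adjusted p = 0.189). The standard error came from a spread shared by all 18 arrays and a trend of spread with level. With only the 6 ATF1 arrays the SE was 2.49 and the adjusted p-values were 1.1e-05 and 1.6e-05, and without the trend they were 5.7e-06 and 9.3e-06. The highest member for ATF1 on 5mC was ctACGTAA, with 8.00 and 9.67, followed by acACGTAA, with 6.18 and 5.99, and gACGTAAc, with 5.40 and 6.31. All of these were reverse complements with a C among the flanking bases.

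The ATF1 counts depended on which arrays entered the fit and on the scale. The count of 47 with 5mC became 14 without C array 1, 17 without C array 2, 5 without 5mC array 1 and 3 without 5mC array 2; that of 42 with 5hmC became 19, 18, 5 and 5 without the corresponding arrays. With only the ATF1 arrays they were 87 and 89, where 4.97% and 5.00% of all 8-mers were called lower. On log2 probe signal they were 75 and 82, where 7.29% and 3.62% of all were.

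JUND gave no call among the members. With 5mC limma called 0 members lower, with 0.244% of all 8-mers called and 1 member at an unadjusted p under 0.05; with 5hmC 0, with 0% of all called and 1 member at that p; and between 5hmC and 5mC 0, with 2.16% of all called lower and 0 members at that p. The median member z-score was 1.63 on C, 0.751 on 5mC and 0.882 on 5hmC. The changes were below 0 for 63 and 68 of 93 members. For aTTACGTa the 2 values were 10.9 and 3.72 on C, 3.96 and 0.971 on 5mC, and 5.51 and 1.18 on 5hmC, so the groups overlapped. The palindrome had 5.15 and 5.16 on C, 0.181 and 0.662 on 5mC, and 2.95 and 1.33 on 5hmC, without overlap; its change with 5mC was -4.74 ± 10.5 (SE; limma adjusted p = 0.869). On quantile-normalized log2 signal that fall was called, at -1.45 ± 0.363 (adjusted p = 0.0411). The leading members on 5mC were acACGTAA, with 3.55 and 4.62, aaTTACGT, with 3.00 and 3.33, and gACGTAAt, with 2.70 and 3.46. On 5hmC, aTTACGTa led, followed by ACGTAAaa, with 3.02 and 1.58, and the palindrome.

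On the z-score scale the falls differed between proteins by the test of the difference. With 5mC, 81 of 93 members fell more for CREB1 than for JUND (2.83% of all 8-mers), and with 5hmC 85 did (2.89% of all). The median member on C DNA stood at 1.63 for JUND (highest 7.31) and at 22.1 for CREB1. The median member thus stood near background for JUND already on C. Whether these counts restate the CREB1 level on C was not tested. The palindrome differed by -69.5 ± 14.8 (SE; limma adjusted p = 0.00864) with 5mC and by -66.6 ± 14.8 (adjusted p = 0.0125) with 5hmC, TTACGTag by -69.2 and -68.7, and aTTACGTa by -65.9 and -66.6. After quantile normalization both counts were 4 (0.19% and 0.29% of all 8-mers called lower). On log2 probe signal the count with 5mC was 42 (1.26% of all). The palindrome's difference with 5hmC after quantile normalization had the opposite sign, at 0.21 on the log2 scale (adjusted p = 0.927). Between CREB1 and ATF1, 8 members fell more for CREB1 with 5mC (0.252% of all) and 7 with 5hmC (0.21% of all). These included gTTACGTa at -32.6 and -33.4, tACGTAAa at -23.8 and -24.2, TTACGTag at -44.4 with 5mC, and ggTTACGT at -18.4 with 5hmC. CREB1 also started from higher z-scores on C DNA. On log2 probe signal 0 members differed between CREB1 and ATF1, and after quantile normalization the median difference had the opposite sign, at 0.34 with either modification.

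The CREB1 and ATF1 differences also moved with single arrays. Without CREB1 C array 1 the counts were 78 and 77, and without CREB1 C array 2 both were 20. With 5mC they were 2 without CREB1 5mC array 1, 1 without ATF1 C array 1 and 0 without ATF1 C array 2 or either ATF1 5mC array. With 5hmC they were 0 without any 1 of the CREB1 5hmC, ATF1 C or ATF1 5hmC arrays.

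Members that held the hexamer on the synthesized strand and their reverse complements place the modified C on opposite sides of the central CpG. On C DNA the median CREB1 z-score was 22.5 for the hexamer orientation and 21.9 for the reverse complements. On 5mC the medians were 1.55 and 5.60, and on 5hmC 1.92 and 3.49. ATF1 medians were 10.2 and 10.0 on C, 0.91 and 2.56 on 5mC, and 0.75 and 1.91 on 5hmC. JUND medians were 1.02 and 1.96 on C, 0.26 and 1.43 on 5mC, and 0.31 and 1.05 on 5hmC. The reverse complements were thus the higher of the 2 orientations by median on every modified kind of DNA, and for CREB1 and ATF1 not on C.

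A test of the 2 orientations within arrays, added after the data were seen, gave the calls pair by pair over 46 pairs. The 2 8-mers of a pair are scored from different sets of probes, and on C DNA they are the same unmodified duplex. The p-values measure the spread between arrays and not that between probe sets. How much of a called difference, on any kind of DNA, lay in the probe sets was not tested. The same limit holds for the base substitutions below. For CREB1 on 5mC the reverse complement was higher in 18 pairs and the hexamer orientation in 0 (14% of all pairs were called in either direction), and on 5hmC in 5 and 0 (13.9% of all). On C the split was 21 and 14 (10.7% of all). For ATF1 the reverse complement was higher in 11 pairs and the hexamer orientation in 0 on 5mC (19.5% of all), in 1 and 0 on 5hmC (8.07% of all), and in 10 and 6 on C (6.44% of all). For JUND the counts were 5 and 0 on C (17% of all), 6 and 0 on 5mC (25.7% of all) and 2 and 0 on 5hmC (8.68% of all). Apart from CREB1 on C and ATF1 on C, the share of member pairs called lay well above the background only for CREB1 on 5mC. For ATF1 on 5mC, 11 of 46 was near the 19.5% of all pairs. On log2 probe signal the reverse complement was higher in 9 pairs and the hexamer orientation in 5 for CREB1 on C, and after quantile normalization in 2 and 0. For ATF1 on C these splits were 5 and 5, then 2 and 2, and on 5mC 25 and 2, then 19 and 0. For JUND on 5mC they were 22 and 1, then 15 and 0. For CREB1 on 5mC they were 27 and 0, then 25 and 0. The shares of all pairs called on these scales are not given here, so these splits have no background beside them. Leaving out array 1 or array 2 of the group changed the z-score counts of called pairs. They became 8 and 15 for CREB1 on 5mC, 1 and 3 for CREB1 on 5hmC, 5 and 9 for ATF1 on C, 3 and 1 for ATF1 on 5mC, and 0 and 0 for ATF1 on 5hmC. For JUND they became 3 and 0 on C, 1 and 1 on 5mC, and 1 and 0 on 5hmC.

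The pair TTACGTag and ctACGTAA changed order between kinds of DNA. On CREB1 C arrays the hexamer orientation was higher, with 66.7 and 81.9 against 46.8 and 63.4. On 5mC it was lower, with 3.74 and 4.08 against 25.9 and 11.4. The difference was 19.2 ± 2.04 (SE; limma adjusted p = 8.7e-06) on C and -14.8 ± 2.04 (adjusted p = 1.4e-04) on 5mC. On 5hmC it was -3.30 ± 2.04 (adjusted p = 0.301). The pair aTTACGTa and tACGTAAt did not pass the test on C, at -0.80 ± 1.94 (adjusted p = 0.848), and differed by -7.04 (adjusted p = 0.0245) on 5mC and -9.12 (adjusted p = 0.00571) on 5hmC. On 5mC their means were 7.25 ± 0.381 and 14.3 ± 10.2 (SD, n = 2). They ranked 573rd and 127th of all tested 8-mers on 5mC array 1, but 369th and 359th on array 2, so the 5mC difference rested on array 1. The member gcTTACGT went the other way, with 11.4 and 8.74 on CREB1 5mC arrays, 4.24 above its reverse complement on average (adjusted p = 0.131).

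Differences between orientations in the change itself depended on the scale. For CREB1 with 5mC, limma called 30 of 46 pairs, 15 with the larger fall in the hexamer orientation and 15 with the larger fall in the reverse complement (5.08% of all pairs). With 5hmC 26 were called, 11 and 15 (4.25% of all). For ATF1 the calls were 6 and 1 with 5mC (2.03% of all) and 2 and 1 with 5hmC (0.236% of all). For JUND they were 0 with 5mC (1.94% of all; 2 pairs at an unadjusted p under 0.05) and 0 with 5hmC (0% of all; 1 pair). Among the called CREB1 differences were TTACGTag against ctACGTAA, by -33.9 with 5mC, and TTACGTat against atACGTAA, by -24.9, both with the larger fall in the hexamer orientation, while gaTTACGT against ACGTAAtc differed by 24.5 the other way. Among those of ATF1 were aTTACGTa against tACGTAAt, by -17.4, TTACGTat against atACGTAA, by -17.3, and tcTTACGT against ACGTAAga, by -10.1, with 5mC. On log2 probe signal every called pair had the larger fall in the hexamer orientation, 10 with 5mC and 4 with 5hmC for CREB1, and 11 and 1 for ATF1. The shares of all pairs called on that scale are not given here. For CREB1 with 5mC, 39 of 46 differences were below 0 on that scale. The ATF1 count of 7 with 5mC became 3 without C array 1, 2 without C array 2, 3 without 5mC array 1 and 1 without 5mC array 2, and that of 3 with 5hmC became 1 without C array 1 or either 5hmC array.

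In the same flanks, the CRE half-site was bound more strongly than the PAR half-site on C DNA. Over 94 pairs (the palindrome enters once for each half-site), the member was lower in 92 and higher in 1 for CREB1 (10.4% of all pairs that differ by the same base change were called lower), with a median difference of -41.2. For ATF1 it was lower in 80 and higher in 1 (6.67% of all called lower), with a median of -21.0. For JUND 6 were lower and 0 higher (7.88% of all called in either direction). The palindrome differed from TGACGTaa by -64.3 for CREB1 (85.6 ± 1.82 against 150 ± 5.69, SD, n = 2) and by -18.6 from TTACGTca, which has the CRE half-site on the other strand. The largest CREB1 differences were -125 for gACGTAAc against gACGTCAc, which completes the central CRE hexamer, -116 for agTTACGT against agTGACGT, and -112 for TTACGTgg against TGACGTgg. The largest for ATF1 were -87.1 for ACGTAAca, -84.4 for tACGTAAc and -84.0 for gTTACGTa, each against its CRE form. The exception for both proteins was tTTACGTa, 5.73 ± 0.634 above tTGACGTa for CREB1 (SE; limma adjusted p = 5.8e-06) and 6.92 ± 0.634 above it for ATF1 (adjusted p = 4.2e-06). Neither call was kept on log2 probe signal, with or without quantile normalization.

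On modified DNA fewer pairs were called on the z-score scale, at shares near or below those of all pairs except for CREB1 on 5hmC. On the log2 scales this order did not hold throughout. After quantile normalization CREB1 had 59 calls on 5hmC and 58 on C, and on log2 probe signal JUND had 28 on 5mC and 16 on C. The shares of all pairs called on the log2 scales are not given here. Whether a pair's difference itself changed between kinds of DNA was not tested. For CREB1 on 5mC the member was lower in 10 pairs and higher in 4 (12.5% of all pairs), and on 5hmC lower in 16 and higher in 4 (13.6% of all). For ATF1 it was lower in 1 and higher in 1 on 5mC (13.3% of all), and limma called 0 pairs on 5hmC (5.61% of all; 7 at an unadjusted p under 0.05). For JUND it was lower in 3 and higher in 0 on 5mC (12.1% of all), and 0 were called on 5hmC (5.05% of all; 1 at an unadjusted p under 0.05). With the hexamer on the synthesized strand the CREB1 median on 5mC was 1.57 for members and 5.73 for their CRE forms, with 9 members lower and 0 higher. With the reverse complement on the synthesized strand, where the CRE form has the additional modified C, the medians were 5.76 and 3.22, with 1 member lower and 4 higher. On 5hmC the medians were 1.93 and 7.19 with the hexamer on the synthesized strand, with 16 lower and 0 higher, and 3.50 and 1.61 for the reverse complements, with 0 lower and 4 higher.

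Single pairs showed both sides of this. For CREB1 on 5hmC the palindrome differed from TGACGTaa by -31.1 ± 5.50 (SE; limma adjusted p = 0.00237), taTTACGT from its CRE form by -26.2 and aTTACGTa by -23.0. On 5mC these differences were -22.1 for the palindrome, -15.4 for taTTACGT and -11.1 for cgTTACGT. In the other direction, tACGTAAt was 14.0 ± 2.27 above tACGTCAt on CREB1 5hmC arrays (adjusted p = 0.00131) and 9.12 above it on 5mC (adjusted p = 0.0168), after a difference of -9.05 on C. For ATF1 on 5mC, ctACGTAA at 8.84 ± 1.18 (SD, n = 2) was 6.87 above ctACGTCA, and TTACGTta differed from its CRE form by -6.56. For JUND the largest on C was -10.4, of aTTACGTg, and on 5mC -3.70, of TTACGTac. Without 1 array the CREB1 count of 14 on 5mC became 2 (without array 1) or 7 (without array 2), the count of 20 on 5hmC became 10 or 3, and the JUND count of 6 on C became 0 or 10. The counts of 2 for ATF1 on 5mC and 3 for JUND on 5mC became 0 without either array.

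Against the C/EBP half-site in the same flanks the order was the reverse on C DNA. The member was higher in 85 of 94 pairs for CREB1 (10.3% of all pairs called higher), with a median difference of 17.3, and in 57 for ATF1 (7.63% of all called higher), with a median of 6.96; 0 were lower for either. For JUND 1 was higher, gtTTACGT by 2.49 (6.09% of all in either direction). The palindrome was 68.6 above TTGCGTaa for CREB1, at 85.6 ± 1.82 against 17.0 ± 1.88 (SD, n = 2; SE of the difference 1.57, limma adjusted p = 8.7e-14), and TTACGTag was 62.6 above its C/EBP form. For ATF1 the largest were 34.4 for aTTACGTa, 24.8 for TTACGTat and 24.7 for the palindrome.

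On 5mC that order turned for the reverse complements. For CREB1 the member was lower in 45 pairs (3.79% of all pairs called lower) and higher in 4, and all 45 had the changed base in the reverse complement, out of 47 pairs of that kind. Their median was 5.76 for members and 26.6 for the C/EBP forms, after 22.1 and 5.63 on C. With the hexamer on the synthesized strand the medians on 5mC were 1.57 and 0.875, with 4 members higher and 0 lower. For ATF1 on 5mC the member was lower in 16 pairs (4.32% of all called lower), all of them of that kind, and higher in 2. On 5hmC CREB1 gave 10 lower, all of that kind, and 4 higher (8.53% of all in either direction). ATF1 gave 0 calls on 5hmC (3.41% of all; 7 at an unadjusted p under 0.05). JUND gave 2 higher and 0 lower on 5mC, TTACGTtg by 3.13 and ttTTACGT by 1.80 (11.1% of all), and 0 on 5hmC (2.53% of all; 0 at an unadjusted p under 0.05).

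The member ctACGTAA shows the crossing in 1 pair. For CREB1 it was 34.8 ± 7.25 above ctACGCAA on C (SE; limma adjusted p = 0.00289) and differed from it by -75.6 ± 7.25 on 5mC (adjusted p = 1.4e-05). The means on 5mC were 18.7 ± 10.3 and 94.3 ± 48.4 (SD, n = 2). The SE of 7.25 came from a spread shared by all 18 arrays, and it understates the spread of this pair on 5mC. On 5hmC the difference was -13.9 ± 7.25 (adjusted p = 0.254). The largest difference from the C/EBP form on 5mC was that of ACGTAAta, at -81.1, and that of cACGTAAt was -66.4. On 5hmC the differences were -58.9 for ACGTAAta, -50.1 for tACGTAAt and -35.1 for cACGTAAt. For ATF1 on 5mC they were -31.0 for tACGTAAt, -24.1 for cgACGTAA and -24.0 for ctACGTAA. Without 1 array the CREB1 count of 49 on 5mC was 36 or 46, that of 14 on 5hmC was 8 (without array 1) or 2 (without array 2), the ATF1 count of 18 on 5mC was 3 or 1, and that of 57 on C was 34 without either array. For JUND the 1 call on C was lost without array 1, and the 2 on 5mC without either array.

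The probes that carry the palindrome show these values in their full sequence. It lay on 18 probes, none of which held the first 6 or the central 6 bases of the CRE on either strand. Shorter stretches of the CRE were not excluded. On the brightest probe the palindrome directly follows gtca, which reads TGAC, the start of the CRE, on the other strand. The signal of a probe, less its local background, is given as a multiple of the array's median probe. The 3 brightest and the 3 dimmest by their mean on the CREB1 C arrays are printed as the 35 variable bases of the synthesized strand, with the palindrome in capitals.
rank 1, brightest: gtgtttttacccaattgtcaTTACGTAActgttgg
rank 2: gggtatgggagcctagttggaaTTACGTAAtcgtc
rank 3: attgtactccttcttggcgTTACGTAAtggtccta
rank 16: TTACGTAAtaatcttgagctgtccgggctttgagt
rank 17: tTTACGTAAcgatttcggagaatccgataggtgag
rank 18, dimmest: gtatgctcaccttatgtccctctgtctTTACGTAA

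The 3 probes ranked brightest had a purine before and a pyrimidine after the palindrome, the flanks of the PAR consensus. They reached 55.2, 44.1 and 43.2 times the array median on CREB1 C DNA. On 5mC they stood at 20.5, 18.5 and 15.7 times, and on 5hmC at 26.6, 19.1 and 17.3 times, as means of 2 arrays. The 2 CREB1 5mC arrays were far apart on these probes. They read 31.9 and 9.18 on the first, 28.3 and 8.62 on the second, and 23.3 and 7.99 on the third. The 2 brightest had saturated spots, so their values on those arrays are lower bounds. The first was saturated on 4 arrays, those of CREB1 C and ATF1 C. The second was saturated on the 2 ATF1 C arrays and not on CREB1 C. The probe ranked 4, with a purine on both sides, stood at 42.3 times and was saturated on 1 array, so its order against the first 3 is not settled. The 3 dimmest, which had the palindrome at the very start, 1 base in, or at the very end of the variable stretch, stood at 4.67, 3.93 and 2.77 times on CREB1 C DNA. On 5mC these were at 1.35, 2.21 and 0.77 times.

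Over all 18 probes the median multiple for CREB1 was 22.9 on C, 3.89 on 5mC and 4.30 on 5hmC. For ATF1 it was 9.07, 2.24 and 2.50, and for JUND 1.64, 1.26 and 1.72. The 4 probes with purine and pyrimidine flanks had CREB1 medians of 43.7 on C, 17.1 on 5mC and 18.2 on 5hmC, and the other 14 had 17.9, 2.51 and 3.83. The lowest of the 4, at rank 11, stood at 15.4, 4.54 and 4.43 times, on C below the median of the other 14. The other 3 of the 4 are the probes printed first. For ATF1 the 4 had 26.5, 3.87 and 4.52 and the 14 had 8.42, 2.12 and 2.30. These classes of probes were formed after the data were seen and were not tested, and the probes differ in all their other bases.

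Probes with the hexamer outside the palindrome followed the orientation of the 8-mers. On CREB1 C arrays 1 and 2 the median multiple was 4.44 and 5.17 for 256 probes with the hexamer on the synthesized strand and 4.35 and 4.97 for 257 probes with it on the printed strand. On the 5mC arrays it was 1.37 and 1.31 against 2.27 and 1.69, and on the 5hmC arrays 1.34 and 1.24 against 1.78 and 1.34. For ATF1 it was 2.90 and 2.93 against 2.69 and 2.84 on C, and 1.23 and 1.17 against 1.62 and 1.57 on 5mC. Probes without ACGT stood between 0.925 and 0.995 times the median on the 18 arrays.

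Set beside related 8-mers, the members lay between the CRE half-site 8-mers and other 8-mers with ACGT in level. For CREB1 on C DNA the median z-score was 71.3 for 95 CRE half-site 8-mers, 22.1 for the members and 5.86 for 1057 other 8-mers with ACGT. With 5mC, 95 of 95 CRE half-site 8-mers and 833 of 1057 others fell for CREB1, and for ATF1 77 and 271 did. On 5hmC the medians for CREB1 were 2.56 for the CRE half-site 8-mers and 2.78 for the members, and on 5mC 4.26 and 3.00. No difference between these lists was tested.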

How the data were processed

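Protein binding microarrays gave 18 arrays, 2 for each of 3 proteins on each of 3 kinds of DNA, grouped by the labelled protein and double-stranding nucleotide. For each of 40330 probes the files hold, per the file headers, a foreground and a local background intensity, linear medians of the spot. The authors also deposited a z-score for every 8-mer on every array, and this score entered the tests unchanged. Scanner, imaging program and the z-score's derivation: not given in the sources used here. Each orientation of an 8-mer has its own score, which ranked with the signal of probes that hold it on the synthesized strand (Spearman rho 0.957 to 0.975) more than on the printed strand (-0.0804 to 0.507). The 409 8-mers without a probe were left out, and 6 null cells, none in a member, stayed missing.

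Z-scores of 65121 8-mers on all 18 arrays were fitted with limma (version 3.58.1, R 4.3.3), 1 mean per group. Variances were moderated along a trend with the mean (9 residual and 10.7 prior degrees of freedom). Tests had both tails, and the Benjamini-Hochberg threshold of 0.05 was taken across the 8-mers as a whole. Orientations and base substitutions were tested on within-array differences, fitted over all 32225 pairs of non-palindromic reverse complements and over all 259298 (CRE) and 259286 (C/EBP) pairs with the same base change, each adjusted over its whole family. Tables were made with Python 3.11.15 and pandas 2.3.3. The fit was tested on simulated data.

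Alternatives were the replicate number as a block, no trend, log2 probe signal (normexp with an offset of 50) with and without quantile normalization, 8-mers on at least 10 probes, the arrays of 1 protein alone, and each array left out in turn. Members were named by rule: the palindrome, up to 5 largest called falls and rises per protein and modification with arrays that did not overlap, the 3 highest per group, and up to 3 largest called differences per other comparison; the lowest 2 for CREB1 and a few pair partners were named after their values were seen. The members, lists and tests were chosen with earlier results of these data known.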

Additional observations from a re-analysis of the deposited data

Results flagged for a closer look

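The change with modification differed between proteins by the interaction test in limma's fit. Between CREB1 and ATF1 it differed for 8 members with 5mC (0.252% of all 8-mers called lower) and 7 with 5hmC (0.21%). Between CREB1 and JUND it differed for 81 with 5mC (2.83%) and 85 with 5hmC (2.89%). With 5mC, CREB1 minus ATF1 was -44.4 for TTACGTag, -32.6 for gTTACGTa and -23.8 for tACGTAAa. With 5hmC it was -33.4 for gTTACGTa, -24.2 for tACGTAAa and -18.4 for ggTTACGT. With 5mC, CREB1 minus JUND was -69.5 for the palindrome TTACGTAA, -69.2 for TTACGTag and -65.9 for aTTACGTa. With 5hmC it was -68.7 for TTACGTag, -66.6 for aTTACGTa and -66.6 for TTACGTAA. All of these are on the z-score scale, and the counts between CREB1 and ATF1 ranged from 0 to 78 when 1 array was left out. After quantile normalization the counts between CREB1 and JUND were 4 and 4 (0.19% and 0.29% of all 8-mers called lower). The 5hmC difference of TTACGTAA was then 0.21 on the log2 scale. The median member on C DNA stood at 1.63 for JUND and 22.1 for CREB1. Whether the counts between CREB1 and JUND restate that difference in level was not tested.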

How the results depend on the processing

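Each count below is of called members or pairs, in the order of settings named. The percentages beside member counts are the shares of all 8-mers called lower in the same setting. After quantile normalization the CREB1 falls numbered 49 with 5mC (2.47%) and 53 with 5hmC (3.01%). ATF1 falls with 5mC were 75 on log2 signal (7.29%) and 87 with only that protein's arrays (4.97%). With 5hmC they were 82 (3.62%), 72 after quantile normalization (2.81%), and 89 (5.00%). Between 5hmC and 5mC, falls were 1 for CREB1 on log2 signal (0.987%). For ATF1 they were 4 on log2 signal (4.29%), 1 after quantile normalization (1.23%) and 1 with its own arrays (2.53%). JUND falls with 5mC were 2 on log2 signal (2.32%) and 4 after quantile normalization (0.751%), and with 5hmC 1 after quantile normalization (0.137%). CREB1 against ATF1 gave 25 and 26 (5mC, 5hmC) without the trend, 14 and 13 with at least 10 probes, and 0 and 0 on either log2 scale. CREB1 against JUND gave 42 with 5mC on log2 signal (1.26%), and 4 and 4 after quantile normalization (0.19% and 0.29%). The shares without the trend and with at least 10 probes are not given here.

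On log2 signal, after quantile normalization and with the protein's own arrays, in that order, orientation differences in change numbered 10 and 5 for CREB1 with 5mC, 4 and 1 with 5hmC, 11, 4 and 24 for ATF1 with 5mC, and 1, 1 and 15 with 5hmC; for JUND with 5mC there were 2 on log2 signal. Against the CRE half-site, in the same order, they numbered 47, 38 and 6 for CREB1 on 5mC, 45, 59 and 9 on 5hmC, 34, 30 and 10 for ATF1 on 5mC, 21, 39 and 10 on 5hmC (2 without the trend), 16, 30 and 0 for JUND on C, and 28 and 13 on 5mC; after quantile normalization they were 58 for CREB1 on C and 8 for JUND on 5hmC. Against the C/EBP half-site they numbered 26, 41 and 1 for CREB1 on 5hmC, 54, 47 and 51 for ATF1 on 5mC, 8, 18 and 13 on 5hmC, 3, 16 and 0 for JUND on C (0 without the trend), 36, 17 and 12 on 5mC, and 1 and 4 on 5hmC; ATF1 on C had 86 with its own arrays. After quantile normalization the sign turned for CREB1 minus ATF1 in gTTACGTa (0.64 with 5mC, 0.64 with 5hmC), tACGTAAa (0.54, 1.18) and TTACGTag (0.34 with 5mC), and for CREB1 minus JUND in TTACGTAA (0.21 with 5hmC). The cause was not tested. The shares of all pairs called in these settings are not given here, so the pair counts above have no background beside them.

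No label pairs the arrays by replicate number. Deviations of same-numbered arrays correlated at 0.202, 0.216 and 0.636 between 5hmC and C (CREB1, ATF1, JUND), and at -0.163 to 0.153 in the other comparisons, so pairing is not established. The replicate block left 93 and 93 CREB1 falls and 40 and 39 ATF1 falls, against 47 and 42 without it. By more than 1.5 times it moved only the count of JUND on C against the C/EBP half-site, from 1 to 0. Leaving out 1 array gave 87 to 93 CREB1 falls with either modification, 3 to 17 and 5 to 19 for ATF1, 0 to 78 and 0 to 77 for CREB1 against ATF1, and 61 to 92 and 67 to 93 for CREB1 against JUND. Orientation differences in change ran from 26 to 32 and 23 to 28 for CREB1, and 1 to 3 and 1 to 2 for ATF1. CRE pairs ran from 90 to 92, 2 to 7 and 3 to 10 for CREB1 (C, 5mC, 5hmC), were 73 for ATF1 on C, and ran from 0 to 10 for JUND on C. C/EBP pairs ran from 68 to 86, 36 to 46 and 2 to 8 for CREB1, 34 and 1 to 3 for ATF1 (C, 5mC), and 0 to 1 for JUND on C. The other counts were 0 in those fits, apart from those of orientations within arrays, given with their results. With 2 arrays a group, and JUND 5hmC arrays that correlated at 0.290, small changes could not be resolved.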
